A study of Homo sapiens with 24 samples.

Results

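Low doses of decitabine (DAC, 120 nM) and of the compound G668684 (150 nM) were compared with azacytidine (Aza, 1500 nM) in HCT116 cells, an established human colorectal carcinoma line. The comparison used 6 of the 24 arrays of the series, chosen by sample title: 2 arrays of DAC 120 nM and 2 of G668684 150 nM, pooled as the 4 low-dose arrays, and 2 arrays of Aza 1500 nM. All cells were exposed for 72 h in RPMI1640 medium with serum, each compound was added from a stock in dimethyl sulfoxide (DMSO), and 4 arrays of cells given DMSO alone were the untreated baseline. The titles of the G668684 arrays carry the word ester, and the series calls the coded compounds prodrugs; neither label names a parent drug, so its structure is not described. The 3 doses differ, so the identity of a compound and its dose cannot be told apart in any difference below, and all groups are a single cell line. The labels do not say that replicates were separate cultures, so p-values measure the spread between these arrays, which may be technical.

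DAC and Aza are cytidine analogues. Once DAC is phosphorylated by deoxycytidine kinase and built into DNA, it traps DNA methyltransferases, and methylation is lost as the cells divide. Aza is a ribonucleoside, activated by uridine-cytidine kinases; it enters RNA as well, and its diphosphate is turned into the deoxy form by ribonucleotide reductase. Many germ line genes, among them the cancer-testis antigens, are held silent in somatic cells by promoter methylation and are known to respond to these drugs. The comparison sets those genes beside genes of lipid synthesis, of stress responses and of DNA replication.

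Levels are log2 of the authors' RMA intensity for 1 probe set per gene, and a difference is low-dose DAC and G668684 minus Aza 1500 nM on the log2 scale with its standard error (SE) from limma, so that 1 unit is a 2-fold change. In a limma fit to all 24 arrays, p-values were adjusted after Benjamini and Hochberg over 18055 genes, and a gene with an adjusted p below 0.05 was called. Of those genes 1883 (10.4%) were called higher and 1421 (7.87%) lower with low-dose DAC and G668684 than with Aza 1500 nM. The 2-fold changes were one-sided, with 164 genes (0.908%) called and at least 2-fold higher and 10 (0.0554%) called and at least 2-fold lower. The median difference of all genes was -0.02. Both Aza arrays mattered for these counts: without Aza replicate 2 there were 946 higher genes, and without Aza replicate 1 there were 655 lower genes. The median 95% interval of a difference reached 0.207 to each side, and the number of arrays limits this precision. The fit treated the low-dose arrays as independent of each other, but deviations of same-numbered arrays correlated at 0.612 between G668684 and DAC. Intervals and SEs of the pooled low-dose arrays may thus be too narrow, and their adjusted p-values too low.

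No gene was called between G668684 150 nM and DAC 120 nM in the limma fit. There 592 of 18055 genes had an unadjusted p under 0.05, a share below the 0.05 that chance alone gives on average. The fit did not pair same-numbered arrays, so what they share stays in its residual. The lack of calls thus does not mean that the compounds act alike. The median 95% interval of a gene reached 0.239 to each side, and the doses of the 2 compounds differ. With the replicate number as a block, 4 genes were called lower with G668684 than with DAC, and with the beta-actin covariate 4 were too. Against Aza 1500 nM, DAC alone had 1754 higher genes (9.71%) and 1157 lower (6.41%), and G668684 alone had 1229 higher (6.81%) and 1041 lower (5.77%); both comparisons use the same Aza arrays. Arrays with the same replicate number stood together across the low-dose groups: the correlation across genes was 0.9957 between replicate 1 of G668684 and of DAC and 0.9974 between their replicates 2, against 0.9904 between the 2 DAC arrays and 0.9949 between the 2 G668684 arrays. Leaving out the low-dose replicates 2 gave 1491 higher and 1497 lower genes, and leaving out the replicates 1 gave 2023 and 1221, a split of the arrays made after the data were seen.

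Promoters of genes at the ends of the 4 gene groups are printed here as a description, since DAC and Aza act on DNA methylation. The arrays do not measure methylation. Each line holds the 250 bases upstream of the first listed transcription start, 5′ to 3′ on the gene's strand, from RefSeq on GRCh38.p14, with every CpG in capitals. The germ line pair is LIN28B, an RNA-binding protein of stem and germ cells (chr6:104940715-104940964, plus strand), and the cancer-testis gene PAGE1 (chrX:49695985-49696234, minus strand).
LIN28B: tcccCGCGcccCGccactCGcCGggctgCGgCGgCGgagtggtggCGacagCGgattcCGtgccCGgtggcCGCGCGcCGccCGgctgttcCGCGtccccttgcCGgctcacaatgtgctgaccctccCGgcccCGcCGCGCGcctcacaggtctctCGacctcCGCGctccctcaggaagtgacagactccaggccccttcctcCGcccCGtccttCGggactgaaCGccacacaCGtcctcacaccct
PAGE1: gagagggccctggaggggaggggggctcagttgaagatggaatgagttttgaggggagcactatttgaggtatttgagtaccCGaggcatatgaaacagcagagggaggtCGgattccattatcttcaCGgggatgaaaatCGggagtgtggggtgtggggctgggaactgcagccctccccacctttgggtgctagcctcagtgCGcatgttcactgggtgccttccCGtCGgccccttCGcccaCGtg
The lipid pair is SCD, the stearoyl-CoA desaturase (chr10:100346983-100347232, plus strand), and STARD4, a carrier of cholesterol between membranes (chr5:111512536-111512785, minus strand).
SCD: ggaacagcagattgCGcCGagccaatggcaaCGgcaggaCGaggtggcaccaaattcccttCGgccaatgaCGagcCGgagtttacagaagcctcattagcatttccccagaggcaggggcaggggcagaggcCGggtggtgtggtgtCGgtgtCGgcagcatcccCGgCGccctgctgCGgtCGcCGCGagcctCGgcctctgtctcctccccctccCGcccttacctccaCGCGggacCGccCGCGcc
STARD4: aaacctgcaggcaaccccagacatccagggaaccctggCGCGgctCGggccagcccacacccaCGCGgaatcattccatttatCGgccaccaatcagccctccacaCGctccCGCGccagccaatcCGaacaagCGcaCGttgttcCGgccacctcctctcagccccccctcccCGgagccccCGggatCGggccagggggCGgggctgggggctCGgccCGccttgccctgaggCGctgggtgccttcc
The stress pair is HSP90B1, the HSP90 chaperone of the endoplasmic reticulum (chr12:103930160-103930409, plus strand), and DNAJC10, a disulfide reductase of the same compartment (chr2:182716007-182716256, plus strand).
HSP90B1: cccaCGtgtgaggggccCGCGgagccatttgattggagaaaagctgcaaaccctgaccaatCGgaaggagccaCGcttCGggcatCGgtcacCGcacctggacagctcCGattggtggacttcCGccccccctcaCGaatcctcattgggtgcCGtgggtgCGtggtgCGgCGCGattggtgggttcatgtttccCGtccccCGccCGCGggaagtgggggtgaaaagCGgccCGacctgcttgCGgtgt
DNAJC10: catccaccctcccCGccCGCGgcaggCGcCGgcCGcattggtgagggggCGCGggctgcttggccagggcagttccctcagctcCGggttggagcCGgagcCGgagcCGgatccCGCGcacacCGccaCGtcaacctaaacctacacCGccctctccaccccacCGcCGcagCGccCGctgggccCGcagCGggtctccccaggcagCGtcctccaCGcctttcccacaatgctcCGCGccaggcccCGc
The replication group is led by 2 histone genes, H1-2, a linker histone (chr6:26056471-26056720, minus strand), and H2BC12, a core histone H2B gene (chr6:27146859-27147108, minus strand).
H1-2: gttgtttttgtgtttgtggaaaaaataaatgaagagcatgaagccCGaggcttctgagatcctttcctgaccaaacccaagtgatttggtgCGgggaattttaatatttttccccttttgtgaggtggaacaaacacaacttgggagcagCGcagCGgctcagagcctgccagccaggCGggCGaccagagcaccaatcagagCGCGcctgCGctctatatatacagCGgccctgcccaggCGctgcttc
H2BC12: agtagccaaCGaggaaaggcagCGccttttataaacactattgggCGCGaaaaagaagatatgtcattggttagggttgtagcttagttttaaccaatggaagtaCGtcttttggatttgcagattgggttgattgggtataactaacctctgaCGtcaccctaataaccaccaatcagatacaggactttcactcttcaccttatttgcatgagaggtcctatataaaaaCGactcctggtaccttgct

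These windows differ in CpG number, with 33 in LIN28B, 28 in DNAJC10, 23 in SCD, 23 in HSP90B1, 20 in STARD4, 11 in H1-2, 9 in PAGE1 and 7 in H2BC12. Over whole lists the median was 8 CpG in 52 cancer-testis promoters, 19 in 54 promoters of germ cell RNA and meiosis genes, 11 in 29 histone promoters, 23 in 28 promoters of cholesterol genes, 25 in 57 S phase promoters and 28 in 29 promoters of the unfolded protein response, beside 11 in all 27305 promoters of the table and 18 in the 14136 promoters of genes tested. The letters CCAAT, the box bound by the factor NF-Y, were searched on both strands in the same windows. They stood in 82.8% of the histone promoters (24 of 29), 82.8% of those of the unfolded protein response (24 of 29), 64.3% of the cholesterol promoters (18 of 28), 56.1% of the S phase promoters (32 of 57) and 44.2% of the cancer-testis promoters (23 of 52), beside 33.0% of all promoters. Among promoters of genes tested the share was 34.0%. Of the windows printed above, those of SCD, STARD4, HSP90B1, DNAJC10, H1-2 and H2BC12 hold CCAAT, and those of LIN28B and PAGE1 do not. The E2F letters TTTCCCGC stood in 15.8% of the S phase promoters (9 of 57), beside 1.42% of all and 1.95% of genes tested. Their variant TTTGGCGC stood in 14% (8 of 57), beside 0.553% of all and 0.714% of genes tested. The sterol element TCACCCCAC stood in 1 of the 28 cholesterol promoters (3.57%), beside 0.348% of all and 0.318% of genes tested. Its variant TCACGCCAC stood in none of the 28 and in 0.132% of all. The letters TGATGNAAT, 1 form of the amino acid response element, stood in none of the 33 promoters of ATF4 genes and in 0.916% of all. Other forms of this element were not searched. The E-box CACGTG stood in 3 of the 28 cholesterol promoters (10.7%), beside 6.49% of all and 8.14% of genes tested. None of these motifs contains another, and a match only says that the letters are in the window.

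Of the 4 gene groups, the germ line group had the largest share of genes called higher, 52.2%. Single lists of other groups reached similar shares, with 56.5% of histones and 55.2% of cholesterol genes. All lists were chosen with earlier results of these data known. Of 92 genes tested in the 3 germ line lists, 48 were called higher and 1 lower with low-dose DAC and G668684 than with Aza 1500 nM, beside 10.4% and 7.87% of all genes, and the median difference was 0.39. Among cancer-testis antigens, proteins made in testis and in tumours, 27 of 34 were called higher and none lower, with a median of 0.79. Their 62 entries include 41 with a probe set on the array, and 34 passed the filter on low values, which a gene silent with DMSO passes through the treated arrays where it is high. This holds for every germ line list, so the shares of the 92 and of the 34 may be raised by the filter. Without the filter 27 of the 41 were called higher and 1 lower, with a median of 0.49, and the median of all germ line genes with a probe set was 0.18 over 113 genes. Among genes of germ cell RNA, piRNA and meiosis 19 of 47 were called higher and none lower, with a median of 0.18. Against DMSO, 55 of the 92 rose and 3 fell with low-dose DAC and G668684, where 14.3% and 13.3% of all genes did, and 35 rose and none fell with Aza 1500 nM, where 8.13% and 9.19% of all genes did. Both of these comparisons use the same DMSO arrays.

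**Figure D1:**
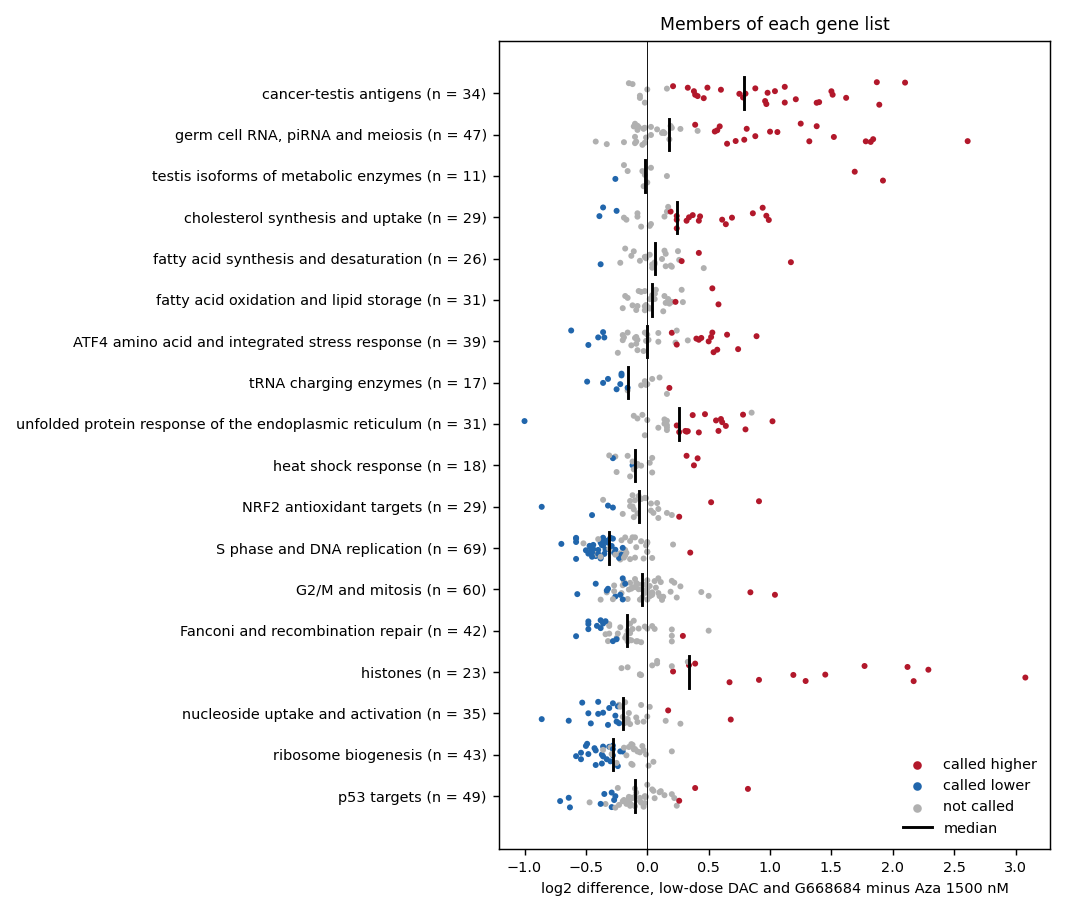
Log2 difference of every tested member of 18 gene lists, low-dose DAC and G668684 minus Aza 1500 nM, with red points for genes called higher, blue for genes called lower, grey for genes not called and a black bar at the list median. The cancer-testis members reach 2.10 and have a median of 0.79, the histones reach 3.08, and the S phase members have a median of -0.31.

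LIN28B lay at 9.86 and 10.26 on the DAC arrays and 9.86 and 10.02 on the G668684 arrays, against 7.46 and 7.32 on the Aza arrays and 4.75 to 5.30 on the DMSO arrays. The low-dose levels were all above both Aza levels, and these were all above DMSO. The difference was 2.61 ± 0.14 (SE, limma adjusted p = 1.4e-10), or 6.11-fold. PAGE1 stood at 7.99, 8.16, 7.86 and 8.08 with DAC and G668684, at 5.92 and 5.93 with Aza, and at 4.81 to 5.39 with DMSO, a difference of 2.10 ± 0.17 (limma adjusted p = 5.1e-08). SSX1, a cancer-testis gene known for its fusion in synovial sarcoma, had 11.21 and 11.17 with DAC and 11.09 and 11.05 with G668684, against 9.31 and 9.17 with Aza. Its difference was 1.89 ± 0.12, and its probe set can also bind other SSX transcripts. TKTL1, a transketolase-like enzyme, reached 12.93, 12.95, 12.81 and 12.88 on the low-dose arrays, against 11.02 and 10.93 on the Aza arrays and 4.70 to 5.54 on the DMSO arrays. It was thus high with every compound, and the difference between them was 1.92 ± 0.16 on top of a rise of 5.74 ± 0.16 with Aza over DMSO.

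Further germ line and pluripotency genes were higher with the low doses than with Aza. DAZL, an RNA-binding protein needed for gametes, was at 10.02 and 10.93 with DAC and 10.03 and 10.32 with G668684, against 8.99 and 9.03 with Aza and 3.99 to 4.51 with DMSO. MAEL, a piRNA pathway protein that represses transposons, had 10.58, 10.91, 10.65 and 10.66 with the low doses, against 8.90 and 8.82 with Aza. In both genes the groups did not overlap, and the differences were 1.32 ± 0.19 and 1.84 ± 0.11. GCNA, a germ cell protease, differed by 1.78 ± 0.15, TEX11, a meiotic crossover gene of the X chromosome, by 1.82 ± 0.16, and SYCP3, a part of the synaptonemal complex, by 1.52 ± 0.18. ZFP42, a pluripotency factor, differed by 1.38 ± 0.23, and its low-dose arrays spread from 8.80 to 10.03, with both replicates 1 below both replicates 2. MAGEA4 differed by 1.21 ± 0.16 and showed the same order of replicates, at 10.50 and 11.27 with DAC and 10.50 and 11.18 with G668684, against 9.68 and 9.63 with Aza. CTAG2 differed by 1.62 ± 0.09, but without probe sets that end in _x_at or _s_at, which can bind several transcripts, its value was 0.47 (limma adjusted p = 0.063). The DMSO levels of LIN28B, TKTL1, DAZL and PAGE1 lie near the filter value of 5, and detection calls were not used here, so the size of a rise over DMSO is uncertain there.

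Not all germ line genes moved, and 43 of the 92 were not called. Of 11 testis isoforms of metabolic enzymes 2 (18.2%) were called higher, TKTL1 and the cytochrome oxidase subunit COX8C at 1.69 ± 0.17. With 1 (9.09%) called lower, beside 10.4% higher and 7.87% lower of all genes, and a median of -0.02, this list was near the background. The only member called lower was GPAT2, a glycerol phosphate acyltransferase of testis, at -0.26 ± 0.08, and its call was lost without DAC replicate 2, G668684 replicate 2 or Aza replicate 1 (limma adjusted p = 0.10, 0.065 and 0.39). Outside the lists the helicase gene DDX43 (2.24 ± 0.21) and the meiotic factor MEIOC (2.73 ± 0.20, in 1 of its 2 probe sets) were among the 15 highest genes.

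**Figure D2:**
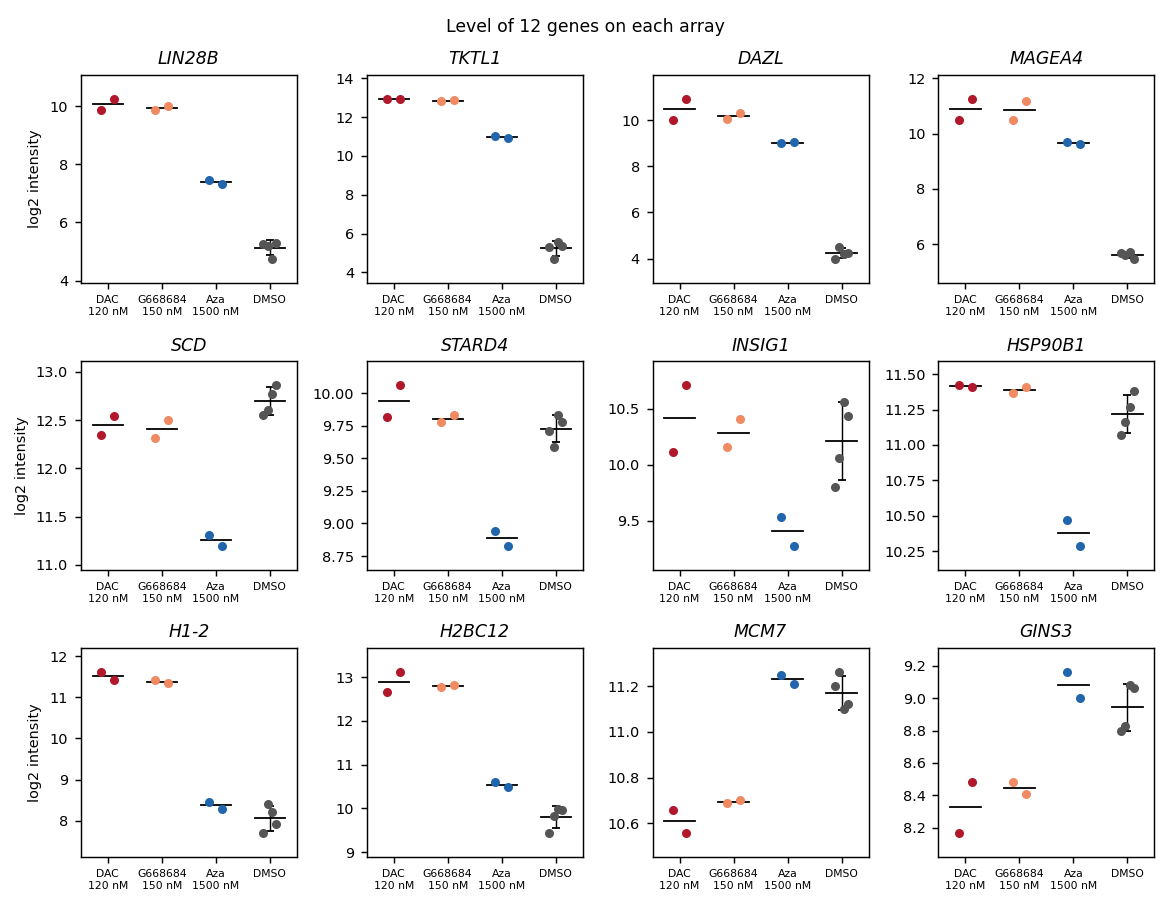
Log2 intensity of 12 genes on each array, with DAC 120 nM and G668684 150 nM left of Aza 1500 nM and DMSO; points are arrays, lines are group means, and bars on the 4 DMSO arrays are SDs. SCD, STARD4 and HSP90B1 have their lowest levels on the 2 Aza arrays, while H1-2 and H2BC12 are high on the 4 low-dose arrays and MCM7 and GINS3 are low on them.

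Histone genes gave the largest difference of the whole comparison. Of 23 histone genes tested, 13 were called higher and none lower, beside 10.4% and 7.87% of all genes, with a median of 0.34. H1-2 was at 11.61 and 11.43 with DAC and 11.42 and 11.34 with G668684, against 8.46 and 8.29 with Aza and 7.71 to 8.40 with DMSO. The Aza arrays thus stood beside DMSO, and the difference from the low doses was 3.08 ± 0.14 (limma adjusted p = 1.3e-11), or 8.43-fold. H2BC12 reached 12.65, 13.11, 12.77 and 12.81 with DAC and G668684, against 10.60 and 10.49 with Aza and 9.45 to 9.99 with DMSO. Further H2B genes, H2BC5 (2.17 ± 0.09) and H2BC6 (2.12 ± 0.11), and the H2A gene H2AC6 (1.77 ± 0.10) moved with it. H2BC12L (2.92 ± 0.08) and H2BC9 (2.43 ± 0.13), which were not on the list, did so too. H2B genes are near-identical copies, and the probe sets of H2BC5, H2BC6, H2BC9 and H2BC12L are of the kind that can bind several of them, so which copy rose is uncertain. Without such probe sets 6 of 13 histone genes were called higher, H1-2 and H2BC12 among them. The other 10 histone genes were not called. As background, most histone mRNAs of S phase end in a stem-loop without a poly(A) tail.

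Genes of DNA replication went the other way. Of 192 genes in the 4 lists of replication, mitosis, repair and histones, 59 were called lower and 17 higher, beside 7.87% and 10.4% of all genes, and 26 were called lower without Aza replicate 1 and 39 without Aza replicate 2. Of 69 S phase genes 38 were called lower and 1 higher with low-dose DAC and G668684, with a median of -0.31. Without Aza replicate 1 the count called lower was 18 and the median stayed between -0.34 and -0.26 in every fit without 1 of the 6 arrays. Same-numbered low-dose arrays deviated together, so leaving out 1 array does not remove what they share. With only low-dose replicates 2 the median of the 4 lists together was less negative. GINS3, a subunit of the replicative helicase, was at 8.17 and 8.48 with DAC and 8.48 and 8.41 with G668684, against 9.16 and 9.0 with Aza and 8.80 to 9.08 with DMSO. Its low-dose levels were below all Aza and all DMSO levels, and the difference was -0.70 ± 0.10 (limma adjusted p = 3.7e-05). MCM7, a helicase subunit too, had 10.66, 10.56, 10.69 and 10.70 with the low doses, against 11.25 and 11.21 with Aza and 11.10 to 11.26 with DMSO, a difference of -0.58 ± 0.05. Further members were CDT1, which licenses origins (-0.58 ± 0.10), the origin kinase CDC7 (-0.50 ± 0.10), and TYMS, thymidylate synthase (-0.23 ± 0.05), whose call was lost without Aza replicate 2 (limma adjusted p = 0.057). MCM2 (-0.34 ± 0.07) and CDC6 (-0.42 ± 0.10) lost their calls without Aza replicate 1 (limma adjusted p = 0.061 and 0.096). PCNA, the sliding clamp, was at 11.79, 12.62, 12.19 and 12.50 with DAC and G668684, against 12.76 and 12.64 with Aza, and was not called (-0.42, limma adjusted p = 0.10). It was called at -0.39 with the beta-actin covariate (limma adjusted p = 0.012) and at -0.42 with the replicate number as a block (limma adjusted p = 0.021). Its lowest levels were both on low-dose replicates 1, and with these alone it differed by -0.71 (limma adjusted p = 0.0017), and without DAC replicate 2 by -0.63 (limma adjusted p = 0.0027). The only S phase gene called higher was ATAD2, at 0.35 ± 0.11, whose call was lost without DAC replicate 2, G668684 replicate 2, Aza replicate 1 or Aza replicate 2 (limma adjusted p = 0.051, 0.054, 0.12 and 0.14). ATAD2 was higher in 3 of its 4 probe sets. It was at 0.10 with the mean of probe sets (limma adjusted p = 0.77) and at 0.09 without _x_at and _s_at probe sets (limma adjusted p = 0.89). Against DMSO 47 of the 69 genes fell and 1 rose with low-dose DAC and G668684, beside 13.3% and 14.3% of all genes. With Aza 1500 nM 9 fell and 4 rose, beside 9.19% and 8.13% of all genes. The DMSO arrays were not alike in these genes. CDT1 was at 10.72 and 10.86 on DMSO replicates 1 and 2, and at 11.14 and 11.02 on replicates 3 and 4. MCM7 had the reverse order, at 11.2 and 11.26 against 11.1 and 11.12. The mean level of the list ran from 9.84 to 9.99 on the low-dose arrays. It ran from 10.14 to 10.23 with Aza and from 10.15 to 10.35 with DMSO. The dependence of these counts on the DMSO pair was not tested.

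Mitotic and repair genes shifted less. Of all genes 7.87% were called lower and 10.4% higher, the background for both lists. Of 60 G2/M genes 10 were called lower and 2 higher, with a median of -0.04, and the count called lower was 2 without Aza replicate 1 and 5 without Aza replicate 2. AURKB, the kinase of the chromosomal passenger complex, differed by -0.32 ± 0.05. Both genes called higher encode kinetochore proteins. CENPE stood at 7.60 and 7.58 with DAC and 7.00 and 6.84 with G668684, against 6.12 and 6.31 with Aza and 7.37 to 8.07 with DMSO, so that Aza had the lowest levels and the difference was 1.04 ± 0.18. CENPF differed by 0.84 ± 0.29, and its call was lost without DAC replicate 1, G668684 replicate 1, Aza replicate 1 or Aza replicate 2 (limma adjusted p = 0.095, 0.13, 0.11 and 0.32). Of 42 genes of Fanconi and recombination repair 11 were called lower and 1, the damage kinase gene ATM (0.29 ± 0.10, in 3 of its 5 probe sets), higher, with a median of -0.16. The count called lower was 6 without Aza replicate 1 and 6 without Aza replicate 2, and none was called higher without any 1 of DAC replicates 1 and 2, G668684 replicate 2 and Aza replicates 1 and 2. The mismatch repair gene MSH6 (-0.58 ± 0.08, in 3 of its 4 probe sets) and the recombinase cofactor RAD51C (-0.48 ± 0.05) were among them.

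Lipid genes were called higher more often than lower, and the leading ones had their lowest levels with Aza 1500 nM. Of 86 lipid genes tested 22 were called higher and 4 lower with low-dose DAC and G668684 than with Aza 1500 nM. The median was 0.07, and 10.4% of all genes were called higher and 7.87% lower. Without Aza replicate 2 the count called lower was 2. Against DMSO 16 fell and 16 rose with low-dose DAC and G668684, where 13.3% and 14.3% of all genes did. With Aza 1500 nM 28 fell and 5 rose, where 9.19% and 8.13% of all genes did. In cholesterol synthesis and uptake 16 of 29 genes were called higher and 3 lower, with a median of 0.24. Without Aza replicate 2 the count called higher was 10. Of 26 genes of fatty acid synthesis 3 were called higher and 1 lower, and of 31 genes of fatty acid oxidation and lipid storage 3 were called higher and none lower, or 5 higher without DAC replicate 1. These shares are near those of all genes.

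SCD, which makes monounsaturated fatty acids, was at 12.35 and 12.54 with DAC and 12.32 and 12.50 with G668684, against 11.31 and 11.20 with Aza and 12.55 to 12.86 with DMSO. The Aza levels stood below those of all other groups, and the difference was 1.17 ± 0.08 (limma adjusted p = 6.3e-09), or 2.25-fold, in 4 of its 4 probe sets. STARD4 had 9.82, 10.06, 9.78 and 9.83 with DAC and G668684, against 8.94 and 8.83 with Aza and 9.59 to 9.83 with DMSO. INSIG1, which holds the sterol sensor in the endoplasmic reticulum, had 10.12, 10.71, 10.16 and 10.41 with the low doses, against 9.54 and 9.28 with Aza and 9.80 to 10.56 with DMSO. Low-dose and DMSO levels of both genes overlapped, while Aza was below them all, and the differences were 0.99 ± 0.08 and 0.94 ± 0.16. At the 10-fold lower Aza dose of 150 nM these genes stood beside DMSO, with SCD at 12.59 and 12.68, STARD4 at 9.78 and 9.80 and INSIG1 at 10.22 and 10.36. HMGCS1, which starts the mevalonate pathway, differed by 0.86 ± 0.13, SQLE, squalene epoxidase, by 0.69 ± 0.08, and SREBF1, a sterol-regulated transcription factor, by 0.42 ± 0.10. SREBF1 lost its call without Aza replicate 2 (limma adjusted p = 0.059).

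NPC1, which exports cholesterol from lysosomes, was an exception in the position of DMSO. It had 10.34 and 10.35 with DAC and 10.19 and 10.28 with G668684, against 9.37 and 9.27 with Aza and 9.01 to 9.29 with DMSO. Here the low doses were high and Aza was next to DMSO, and the difference was 0.97 ± 0.08. The 3 cholesterol genes called lower were MBTPS2, a protease that activates sterol-regulated factors (-0.39 ± 0.08), the sigma-2 receptor TMEM97 (-0.36 ± 0.05) and the sterol reductase TM7SF2 (-0.25 ± 0.07), the last losing its call without DAC replicate 2 or Aza replicate 2 (limma adjusted p = 0.059 and 0.16). In fatty acid synthesis ACACA, acetyl-CoA carboxylase, was called higher (0.42 ± 0.08), while FASN, the synthase itself, had 0.25 ± 0.09 and was not called (limma adjusted p = 0.080). At the same size FASN was called with the beta-actin covariate (limma adjusted p = 0.044) and with the replicate number as a block (limma adjusted p = 0.038), and at 0.36 with DAC alone (limma adjusted p = 0.031). ELOVL5, an elongase, was the 1 gene called lower (-0.38 ± 0.11), in 2 of its 4 probe sets, and its call was lost without any 1 of DAC replicate 1, G668684 replicate 1, Aza replicate 1 and Aza replicate 2 (limma adjusted p = 0.061, 0.074, 0.063 and 0.20).

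**Figure D3:**
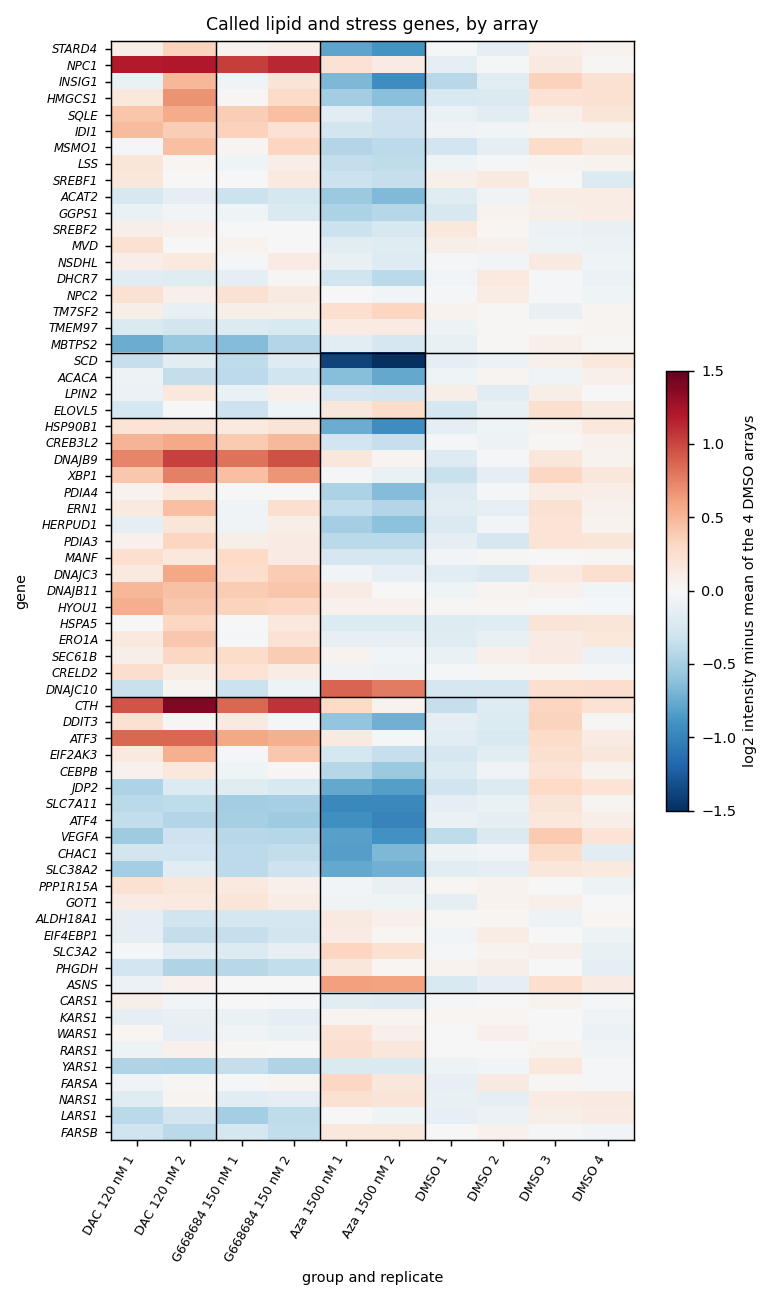
Heat map of the called genes of 5 lists (from the top: cholesterol, fatty acid synthesis, unfolded protein response, ATF4 and tRNA charging), coloured by log2 intensity minus the mean of the 4 DMSO arrays, with arrays of DAC and G668684 left of Aza and DMSO. The scale ends at 1.5 each way. SCD, STARD4 and HSP90B1 have their lowest levels on the Aza arrays, and ASNS and DNAJC10 their highest.

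Of 133 stress genes 35 were called higher and 20 lower, beside 10.4% and 7.87% of all genes, and the median was 0.00. The same shares of all genes are the background for each of the stress lists. Without Aza replicate 2 the count called higher was 20, and without Aza replicate 1 the count called lower was 11. The unfolded protein response of the endoplasmic reticulum moved mostly one way, with 16 of 31 genes called higher and 1 lower and a median of 0.26, although without Aza replicate 2 the count called higher was 10. HSP90B1 was at 11.42 and 11.41 with DAC and 11.37 and 11.41 with G668684, against 10.47 and 10.29 with Aza and 11.07 to 11.38 with DMSO. The difference was 1.02 ± 0.11 (limma adjusted p = 1.6e-06), again with Aza below DMSO. DNAJB9, a cochaperone of the same compartment, had 10.40, 10.70, 10.48 and 10.63 with the low doses, against 9.84 and 9.71 with Aza and 9.48 to 9.84 with DMSO, so that here the low doses were raised and Aza was beside DMSO. PDIA4, a disulfide isomerase, differed by 0.61 ± 0.08, and XBP1, the transcription factor of this response, by 0.64 ± 0.13 in 1 of its 2 probe sets. The 1 gene called lower, DNAJC10, had 8.34, 8.72, 8.35 and 8.60 with DAC and G668684, against 9.55 and 9.46 with Aza and 8.42 to 8.94 with DMSO, a difference of -1.0 ± 0.14 in 5 of its 5 probe sets.

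The targets of ATF4, the transcription factor of amino acid stress, were split. Of 39 genes 13 were called higher and 5 lower, with a median of 0.00. ATF4 itself stood at 12.17 and 12.10 with DAC and 12.04 and 12 with G668684, against 11.62 and 11.54 with Aza and 12.40 to 12.69 with DMSO, so that both treatments were below DMSO and Aza further, and the difference was 0.50 ± 0.08. DDIT3, the pro-apoptotic factor CHOP, differed by 0.74 ± 0.12, SLC7A11, the cystine importer, by 0.52 ± 0.09, and CTH, cystathionase, by 0.89 ± 0.15. Of the 5 genes called lower 4 serve amino acid synthesis or transport, and the fifth, EIF4EBP1, restrains translation (-0.36). ASNS, asparagine synthetase, was at 11.84, 12, 11.92 and 11.94 with DAC and G668684, against 12.55 and 12.53 with Aza and 11.70 to 12.18 with DMSO, so that Aza alone was raised and the difference was -0.62 ± 0.09. PHGDH, which starts serine synthesis, differed by -0.48 ± 0.07, and SLC3A2, an amino acid carrier subunit, by -0.40 ± 0.07. Of 17 tRNA charging enzymes 8 were called lower and 1 higher, with LARS1 at -0.36 ± 0.07, and without Aza replicate 1 the count called lower was 3 and none was called higher.

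Heat shock and antioxidant genes stayed near the background. Of 18 heat shock genes 3 were called higher and 2 lower, with the small chaperone HSPB1 at 0.32 ± 0.06 and the HSP40 gene DNAJB1 at -0.28 ± 0.06. Without Aza replicate 2 no heat shock gene was called higher in the limma fit, HSPB1 being at 0.25 (limma adjusted p = 0.054), and without Aza replicate 1 none was called lower, DNAJB1 being at -0.25 (limma adjusted p = 0.052). The count called lower was 4 without DAC replicate 2 and 1 without DAC replicate 1, G668684 replicate 1 or Aza replicate 2. Of 29 targets of the antioxidant factor NRF2 3 were called higher and 4 lower. CBR1, a carbonyl reductase, was called higher (0.91 ± 0.11), and the quinone reductase NQO1 (-0.45 ± 0.05) and the aldo-keto reductase AKR1B10 (-0.86 ± 0.07) were called lower. AKR1B10 was at 6.52, 6.53, 6.36 and 6.45 with DAC and G668684, against 7.32 and 7.34 with Aza, and averaged 6.36 ± 0.05 with DMSO (SD, n = 4), so that it was raised by Aza alone. The count called lower was 7 without DAC replicate 2 and 2 without Aza replicate 1.

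**Figure D4:**
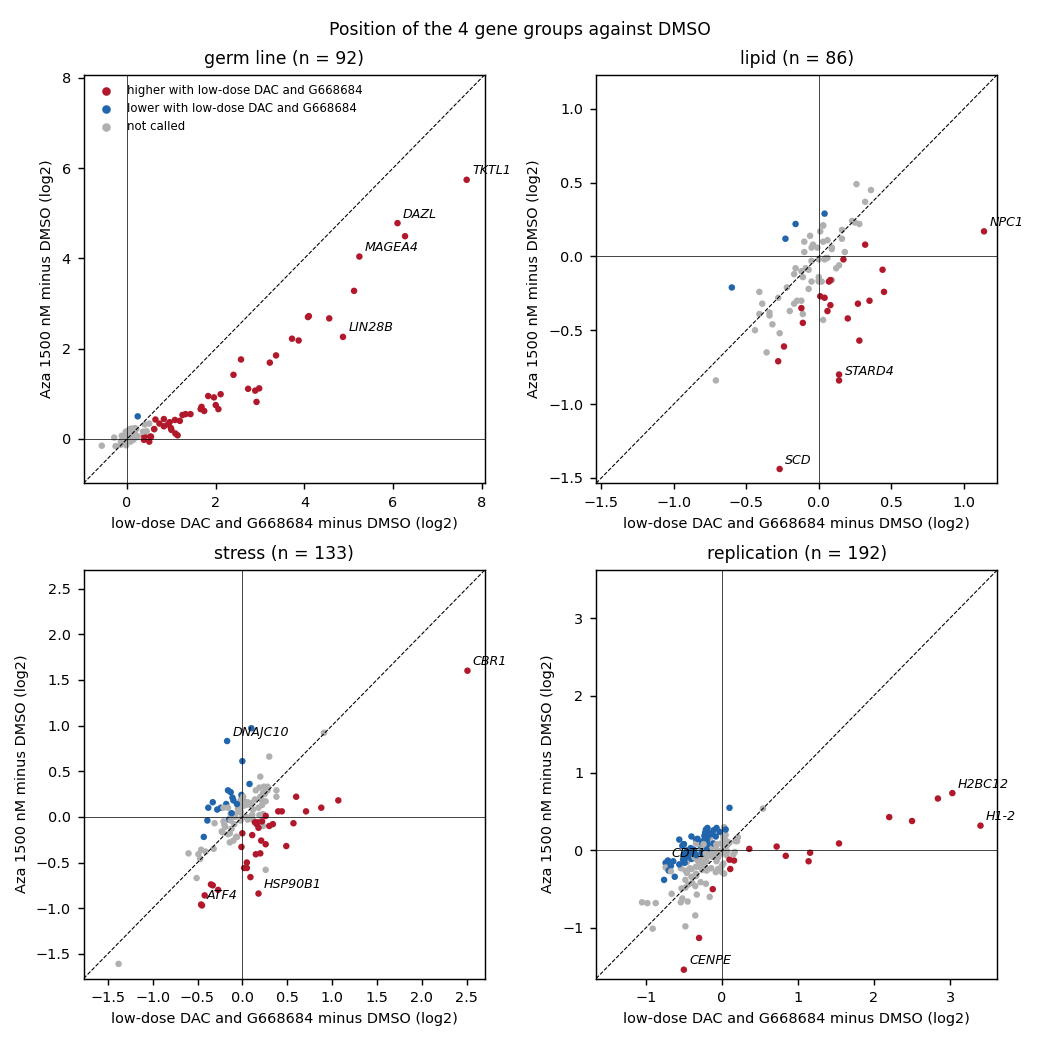
Difference from DMSO of each tested gene, with low-dose DAC and G668684 on the horizontal axis and Aza 1500 nM on the vertical axis (log2), in the 4 gene groups; both axes share the DMSO arrays. Red genes are called higher and blue genes lower with low-dose DAC and G668684 than with Aza, and the dashed line marks equal differences. Germ line genes lie below the line on the side of rises, SCD and STARD4 lie below it on the side of falls with Aza, and H1-2 and H2BC12 lie far along the horizontal axis.

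Of 43 genes of ribosome biogenesis 23 were called lower, none higher and 20 neither, beside 7.87% of all genes called lower and 10.4% higher, with a median of -0.28, and without Aza replicate 1 the count called lower was 8. NAT10, the acetyltransferase of ribosomal RNA, was at 9.88 and 9.72 with DAC and 9.73 and 9.86 with G668684, against 10.43 and 10.32 with Aza and 10.13 to 10.18 with DMSO. It lay below DMSO with the low doses and above DMSO with Aza, and the difference was -0.58 ± 0.07 (limma adjusted p = 7.9e-06). Against DMSO 14 of the 43 genes fell and 1 rose with low-dose DAC and G668684, beside 13.3% and 14.3% of all genes. With Aza 1500 nM 1 fell and 12 rose, beside 9.19% and 8.13% of all genes. Of 35 genes of nucleoside uptake and activation 15 were called lower and 2 higher, with a median of -0.20, and 1 was called higher without DAC replicate 1, either G668684 replicate or Aza replicate 2. UPP1, uridine phosphorylase, stood at 9.46, 9.31, 9.32 and 9.38 with DAC and G668684, against 9.95 and 9.84 with Aza and 7.75 to 8.38 with DMSO, so that it rose with all of them and most with Aza. CTPS1, a CTP synthase, differed by -0.64 ± 0.08. CDA, the cytidine deaminase that inactivates both drugs, was called higher, at 8.18 and 8.13 with DAC and 8.02 and 8.11 with G668684, against 7.50 and 7.37 with Aza and 7.49 to 7.78 with DMSO, a difference of 0.68 ± 0.08. The kinases DCK (-0.17 ± 0.22) and UCK1 (-0.09 ± 0.07) were not called, and UCK2 was not among the genes tested.

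Of 49 targets of p53, 9 were called lower and 3 higher with low-dose DAC and G668684 than with Aza 1500 nM, beside 7.87% and 10.4% of all genes, with a median of -0.10. Against DMSO 20 rose and 2 fell with low-dose DAC and G668684, beside 14.3% and 13.3% of all genes, and 25 rose and 2 fell with Aza 1500 nM, beside 8.13% and 9.19%. CDKN1A, the cell cycle inhibitor p21, was at 11.09, 10.97, 10.88 and 10.93 with DAC and G668684, against 11.29 and 11.23 with Aza and 9.97 to 10.29 with DMSO. Its difference of -0.29 ± 0.07 was small beside the rise over DMSO in both groups, and was not called without Aza replicate 1 (limma adjusted p = 0.091). DDB2, a DNA damage sensor, differed by -0.64 ± 0.07, and FAS, a death receptor, by -0.71 ± 0.10 in 5 of its 5 probe sets, with a value of -0.25 (limma adjusted p = 0.095) once probe sets that end in _x_at or _s_at were left out. The genes called higher were CCNG2, an atypical cyclin of quiescent cells (0.82 ± 0.14), TP53INP1 (0.39 ± 0.10, in 1 of its 3 probe sets) and SERTAD1 (0.26 ± 0.06), and without Aza replicate 2 only 1 gene was called higher.

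Genes known to be methylated in colon cancer or by parental origin were tested too. Of all genes 10.4% were called higher and 7.87% lower, the background for each list here. Of 46 genes silenced in colon cancer 15 were called higher and 1, TMEFF2 (-0.51 ± 0.13, in 1 of its 2 probe sets), lower, with a median of 0.14, and without Aza replicate 1 none was called lower. SPARC, a matrix protein, was at 9.53, 9.89, 9.36 and 9.73 with DAC and G668684, against 7.09 and 6.99 with Aza, and averaged 5.57 ± 0.51 with DMSO (SD, n = 4), a difference of 2.59 ± 0.21. VIM, an intermediate filament, differed by 1.07 ± 0.07, and CDO1, cysteine dioxygenase, by 1.57 ± 0.15. Of 24 imprinted genes 6 were called higher and 1 lower, and none was called lower without DAC replicate 1 or Aza replicate 1. CDKN1C, an imprinted cell cycle inhibitor, had 9.53, 9.52, 9.53 and 9.66 with the low doses, against 8.48 and 8.46 with Aza and a mean of 8.52 ± 0.09 with DMSO (SD, n = 4), so that Aza stood beside DMSO. NAP1L5 differed by 1.43 ± 0.12. Of 39 interferon-stimulated genes 12 were called higher and none lower, with a median of 0.03, among them the transcription factor gene IRF9 (0.92 ± 0.10) and IFI27 (1.07 ± 0.16). The methyltransferase genes DNMT1 (0.04), DNMT3A (0.19) and DNMT3B (0.27) and the adaptor UHRF1 (-0.21) were not called, which bears on their RNA alone, since the drugs act on the proteins.

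Genes outside the lists led the opposite end. LCN2, an iron-binding secreted protein, was at 7.27 and 7.20 with DAC and 7.25 and 7.20 with G668684, against 8.55 and 8.53 with Aza and 6.48 to 6.81 with DMSO. All treated arrays were above DMSO, Aza the most, and the difference was -1.31 ± 0.09 (limma adjusted p = 2.7e-09). The largest fall was in REEP3, which shapes the endoplasmic reticulum, at -1.40 ± 0.26, but its low-dose arrays ranged from 8.29 to 9.33 with both replicates 1 lowest, against 10.28 and 10.21 with Aza. CD44, a hyaluronan receptor, differed by -1.02 ± 0.12 in 9 of its 11 probe sets, and ADORA2B, an adenosine receptor, by -1.07 ± 0.06. CLIC3, a chloride channel protein (2.49 ± 0.12), and GJA1, a gap junction protein (2.35 ± 0.15), were at the other end.

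Epithelial markers were measured in every group. As background for the marker counts here, 10.4% of all genes were called higher and 7.87% lower. The keratin KRT18 averaged 14.14 ± 0.08 with low-dose DAC and G668684 (SD, n = 4), 13.80 with Aza and 13.69 ± 0.10 with DMSO (SD, n = 4), and of 19 colon epithelial markers 3 were called higher and none lower. KRT20, a keratin of differentiated gut cells, was called higher at 1.69 ± 0.10, as was the adhesion gene CDH1 at 0.72 ± 0.09. CDH1 averaged 10.37 with low-dose DAC and G668684, 9.64 with Aza and 10.30 with DMSO, so that it fell with Aza (-0.66 ± 0.09 against DMSO, limma adjusted p = 6e-05) and was not called against DMSO with the low doses (0.07 ± 0.08, limma adjusted p = 0.61). Markers of other cells were mostly not called: 1 of 11 fibroblast markers, 1 of 11 blood markers and 2 of 13 neuronal markers were higher, none of 8 keratinocyte markers was, and 1 neuronal marker was lower. The summed linear intensity of the fibroblast markers ran from 2.52e+03 to 2.76e+03 on the low-dose arrays, from 2.47e+03 to 2.57e+03 on the Aza arrays and from 2.04e+03 to 2.42e+03 on the DMSO arrays, and the part of other cell types in the results was not tested. Beta-actin 3′ minus 5′ probe values, a sign of RNA quality, ran from -0.07 to 0.09 on the low-dose arrays, from -0.01 to 0.04 on the Aza arrays and from -0.03 to 0.24 on the DMSO arrays. In bulk RNA fewer cells with a transcript and less of it per cell cannot be told apart.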

How the data were processed

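RNA of HCT116 cells was hybridised to Affymetrix HG-U133 Plus 2.0 arrays, 24 in all, and groups were taken from the sample titles. The authors deposited 1 table of linear intensity values for which the submitters' processing notes name RMA and, as software, Affymetrix Expression Console 1.1. No genome build is stated there. RMA corrects background and equalises array distributions, so global shifts between arrays cannot be seen, and scanner files were not used here. Values were taken as log2. Probe sets reaching 5 on the log2 scale in 2 arrays or more and holding 1 gene symbol in GEO's platform annotation were kept (35146 passed the level), and the one with the highest mean stood for each of 18055 genes; 41091 of 54675 probe sets had 1 symbol, 1801 several and 11721 none. The fit was limma 3.58.1 in R 4.3.3 (lmFit, eBayes with an intensity trend) over all 24 arrays in their groups, with 13 residual degrees of freedom, 2-sided, Benjamini-Hochberg adjusted over all genes; it was tested on simulated data. Figures used matplotlib 3.10.9 and pandas 2.3.3 in Python 3.11.15. Array medians ran from 6.46 to 6.58.

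The members, the 28 gene lists and the motifs were chosen with earlier results of these data known. Genes were named from the 15 highest and 15 lowest genes whose arrays did not overlap, the 6 highest and 6 lowest called members of each list of the 4 gene groups, up to 3 called members each way of every other list, and a list of genes named in any case; the text names part of this pool. Alternatives left out each array in turn, changed the fit, filter, probe sets, scaling and offset, and added the replicate number or the beta-actin ratio. Promoters came from a RefSeq table (GRCh38.p14), matched by symbol.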

Additional observations from a re-analysis of the deposited data

Results flagged for a closer look

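For each gene named, the spread of its 4 low-dose and of its 4 DMSO arrays was tested with Dixon's ratio, the gap of an end array to its neighbour over the whole range. Chance passes the 95% critical value in about 1 of 20 groups. Of 206 groups tested 8 passed. In the low-dose arrays these were ATM (0.962), TM7SF2 (0.95), TMEFF2 (0.935), CDKN1C (0.929), TYMS (0.909) and GCNA (0.867), and in the DMSO arrays GJA1 (0.846) and TMEFF2 (0.833). The arrays apart were G668684 replicate 1 for ATM, DAC replicate 2 for TM7SF2 and GCNA, DAC replicate 1 for TMEFF2 and TYMS, and G668684 replicate 2 for CDKN1C.

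A set of genes lay on opposite sides of DMSO, called lower than DMSO in one group and higher in the other; the difference between the groups was tested in the limma fit, and the DMSO arrays are shared. SQLE (0.69) and NAP1L5 (1.43) were above DMSO with low-dose DAC and G668684 and below it with Aza 1500 nM. ADORA2B (-1.07), CD44 (-1.02), NAT10 (-0.58), RAD51C (-0.48) and NQO1 (-0.45) were below DMSO with low-dose DAC and G668684 and above it with Aza 1500 nM. Over all genes 80 were of the first kind and 92 of the second.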

How the results depend on the processing

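The main comparison was repeated under 23 alternatives. Of 95 called genes named, 77 kept their call and direction in every alternative that tested them. Genes with only _x_at or _s_at probe sets, ASNS and AKR1B10 among them, were not tested without those probe sets. With the 6 arrays alone, 1170 genes were called higher and 696 lower, and fewer arrays give fewer degrees of freedom; with the 4 low-dose arrays as one group 906 were called lower, and with G668684 alone 1229 were called higher. Without 1 array, 946 to 1983 were called higher and 655 to 1453 lower. Replicate numbers tied the low-dose arrays to each other but not to the Aza arrays, so the block was kept as an alternative: deviations of same-numbered arrays correlated at 0.612 between G668684 and DAC, and at -0.259 between DAC and Aza and -0.375 between G668684 and Aza. The replicate block gave 2358 higher and 1847 lower, and the crossed block, chosen after seeing the data, 2503 and 1989. Between G668684 and DAC 4 genes were called lower with the replicate block and 4 with the beta-actin covariate. Germ line genes called lower numbered 0 with the 6 arrays, as one group and with DAC alone, 2 without the filter and with either block, 3 with beta-actin and with only low-dose replicates 2, and 0 to 2 without 1 array; their median was 0.18 without the filter, 0.49 with the filter at 6 and 0.26 with 32 added to the values. Lipid genes called higher numbered 13 of 61 without _x_at and _s_at probe sets, where fewer genes were tested, and called lower 2 with the 6 arrays and 2 to 4 without 1 array; their median was 0.12 with DAC alone and with only low-dose replicates 2, and 0.06 to 0.12 without 1 array. Replication genes called higher numbered 7 and called lower 39 of 142 without those probe sets, and called lower 38 with the 6 arrays and 26 to 66 without 1 array, with a median of -0.09 with only low-dose replicates 2. Stress genes called higher numbered 23 and lower 12 with the 6 arrays, and 20 to 38 and 11 to 24 without 1 array, with a median from -0.02 to 0.04. Aza 1500 nM against DMSO gave 885 higher without those probe sets, 2625 higher and 2882 lower with DMSO replicates 3 and 4 alone, and 746 to 1713 higher and 672 to 1952 lower without 1 array. Direction turned for ATM (-0.09 without those probe sets), TP53INP1 (-0.03 with the mean of probe sets), DCK (0.02 without DAC replicate 1 within a range of -0.36 to 0.02 without 1 array, and 0.14 with only low-dose replicates 2) and DNMT1 (-0.02 with G668684 alone, -0.02 without DAC replicate 1, -0.04 without Aza replicate 2, -0.00 with only low-dose replicates 2). Where the construction does not show it, the cause was not tested. Low signals near background limit the germ line genes.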
